A study of Mus musculus with 32 samples.

Results

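Glycolysis and pyruvate handling were followed through a list of 41 genes in interscapular brown adipose tissue of mice lacking ChREBP, the glucose-responsive transcription factor encoded by Mlxipl. The list runs from the hexokinases to pyruvate kinase and includes the enzymes that make lactate, the lactate carriers, the mitochondrial pyruvate carrier and the pyruvate dehydrogenase complex with its kinases and phosphatases. A gene belonged to it by name, and its measured members are the 40 of the 41 genes with at least 1 probe that passed the filter on dim spots. They were represented by 90 of the 37306 probes kept, and they stand among 24523 gene names measured in all. Pklr, the liver-type pyruvate kinase, had no probe that passed.

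Glycolysis splits glucose into pyruvate in the cytosol. Pyruvate is then either reduced to lactate and exported with a proton by monocarboxylate transporters, or carried into mitochondria and turned into acetyl-CoA by the pyruvate dehydrogenase complex, which kinases of the Pdk family switch off by phosphorylation and phosphatases of the Pdp family switch back on. Brown adipocytes take up much glucose after a meal and use part of it for fatty acid synthesis, and ChREBP is known as an activator of genes of both pathways.

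RNA came from C57BL6/J male mice that were fasted for 24 hours and given food and water holding 20% glucose again for 18 hours. Each of 4 groups held 8 arrays. Total ChREBP KO mice are Mlxipl-null and lack the α and β isoforms, and their WT littermates are called total-line WT here. ChREBPβ KO mice carry a CRISPR/Cas9 deletion of the exon specific to the β isoform and keep the α isoform, and their WT littermates are called ChREBPβ-line WT. The study reports raised α isoform mRNA and protein in brown fat of such males, so β loss came with more of the α isoform there. Both deletions are present in all tissues, and the study derived 2 ChREBPβ-deficient lines per strain without the labels stating which mouse belonged to which. Age is not given in the sources used here. The study counts mice as its replicates, while the labels number the arrays without naming the mouse behind each, and p-values measure the spread between these arrays.

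Values are log2 of quantile-normalised spot intensities, and a gene is shown by its brightest probe. They rank arrays for the same probe, and no probe was compared with another. The call was an adjusted p under 0.05 by limma with Benjamini-Hochberg adjustment over all 37306 probes. The targeted gene was checked first. The brightest Mlxipl probe lay between 15.95 and 16.31 in total-line WT and between 13.48 and 13.86 in total ChREBP KO, which is -2.48 ± 0.07 as a log2 fold change with its SE (limma adjusted p = 5.01e-24). It lay between 16.14 and 16.58 in ChREBPβ-line WT and between 14.71 and 15.01 in ChREBPβ KO, with a change of -1.49 ± 0.07 (limma adjusted p = 2.31e-16). A further 1 of the 3 Mlxipl probes was lower in both KO groups, and the remaining probe was called in neither.

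The tissue label was checked against markers. All 8 brown adipocyte markers, Ucp1 and Cidea among them, were above background on all 32 arrays, and their mean lay between 14.14 and 15.16 over the arrays. Single markers moved in total ChREBP KO, where 3 of the 8 were higher and 3 lower, from -3.16 for Elovl3 to 2.18 for Dio2, while their mean ranged from 14.76 to 15.15 in total-line WT and from 14.77 to 15.16 in KO. Of 6 white adipose markers, 2 were higher there, Lep (0.30) and Npr3 (1.77), and their mean ranged from 7.24 to 7.77 in WT and from 7.62 to 8.06 in KO. None of the brown markers and 1 white marker, Npr3, was called in ChREBPβ KO. The part of these shifts in the results on the members was not tested. Skeletal muscle markers differed between the lines. The mean of the 14 muscle markers, all measured, ranged from 12.95 to 16.12 in total-line WT and from 14.40 to 15.85 in total ChREBP KO, but from 6.21 to 12.05 in ChREBPβ-line WT and from 6.35 to 11.50 in ChREBPβ KO. Its defining genes moved together, and 14 of 14 were lower in ChREBPβ-line WT than in total-line WT, with log2 differences from -7.14 to -2.39. Neither KO comparison called any of the 14. Isoforms known from muscle are therefore described apart. In bulk tissue, fewer cells of a type and less RNA per cell cannot be told apart.

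The promoters of the genes on which the results turn are shown because ChREBP binds, together with Mlx, to a carbohydrate response element made of a pair of E-box-like motifs. Of the 41 members, 40 matched an entry of RefSeq promoters on GRCm38.p6, with Pdp1 missing. The windows searched hold 250 bases before and 50 after each annotated start, and the 250 bases before the start are printed, in lower case, 5′ to 3′ on the gene's own strand. Capitals mark an E-box (CACGTG, the same on both strands) or, in Pklr, the carbohydrate response element. Pdk1, Hk2, Slc16a1 and Gpi1 had the largest decreases among the members called in total ChREBP KO. Ldha holds 2 E-boxes, and Pklr is the gene from which the element was classically described. Pdk1 is at chr2:71872974-71873223 on the plus strand, Hk2 at chr6:82774455-82774704 on the minus strand, Slc16a1 at chr3:104638414-104638663 on the plus strand, Gpi1 at chr7:34230337-34230586 on the minus strand, Ldha at chr7:46845554-46845803 on the plus strand and Pklr at chr3:89136373-89136622 on the plus strand.
Pdk1: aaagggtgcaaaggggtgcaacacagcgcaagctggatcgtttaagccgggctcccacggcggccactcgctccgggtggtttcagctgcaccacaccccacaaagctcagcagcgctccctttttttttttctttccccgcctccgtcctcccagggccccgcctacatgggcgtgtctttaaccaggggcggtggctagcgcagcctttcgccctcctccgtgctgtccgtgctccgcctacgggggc
Hk2: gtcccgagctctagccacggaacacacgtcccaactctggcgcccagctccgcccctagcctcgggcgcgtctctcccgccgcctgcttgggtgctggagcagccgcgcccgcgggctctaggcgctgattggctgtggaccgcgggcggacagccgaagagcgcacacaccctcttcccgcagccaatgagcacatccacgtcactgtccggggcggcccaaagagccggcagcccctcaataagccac
Slc16a1: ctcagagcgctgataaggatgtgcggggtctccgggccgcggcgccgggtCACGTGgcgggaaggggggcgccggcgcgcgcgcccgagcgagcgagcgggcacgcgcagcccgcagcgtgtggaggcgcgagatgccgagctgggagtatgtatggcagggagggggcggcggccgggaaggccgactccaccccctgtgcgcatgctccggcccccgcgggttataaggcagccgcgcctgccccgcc
Gpi1: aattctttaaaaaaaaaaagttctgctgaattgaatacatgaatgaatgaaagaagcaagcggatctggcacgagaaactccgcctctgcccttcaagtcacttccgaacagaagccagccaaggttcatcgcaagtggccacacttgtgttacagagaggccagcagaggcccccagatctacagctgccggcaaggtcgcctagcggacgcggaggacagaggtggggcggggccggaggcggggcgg
Ldha: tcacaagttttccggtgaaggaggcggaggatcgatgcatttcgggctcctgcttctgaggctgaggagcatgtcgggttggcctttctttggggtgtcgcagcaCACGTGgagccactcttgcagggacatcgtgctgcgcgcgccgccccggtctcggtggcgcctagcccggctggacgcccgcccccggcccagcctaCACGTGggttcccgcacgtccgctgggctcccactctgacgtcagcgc
Pklr: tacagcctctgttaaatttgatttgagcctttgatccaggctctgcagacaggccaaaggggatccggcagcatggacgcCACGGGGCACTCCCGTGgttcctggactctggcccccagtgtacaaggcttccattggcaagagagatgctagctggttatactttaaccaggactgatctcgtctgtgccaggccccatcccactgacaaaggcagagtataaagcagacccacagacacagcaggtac

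In these windows the Slc16a1 E-box lies from 200 to 195 bases before the start, those of Ldha from 145 to 140 and from 48 to 43 bases before it, and the element of Pklr from 170 to 154 bases before it. The windows of Pdk1, Hk2 and Gpi1 hold neither set of letters. Over the list, 8 of 61 promoter entries (13.1%) held an E-box, against 2349 of 32851 entries in all (7.15%). The 8 genes were Pfkfb2, Pfkfb3, Pfkm, Fbp2, Ldha, Slc16a1, Pdk2 and Pdp2. Of the 19 members called lower in total ChREBP KO, 3 had an E-box, as had 2 of the 8 called higher. The carbohydrate response element matched 39 entries in all (0.119%), and Pklr was the only member with a match. A match of letters is a description and not a binding site, and these short windows do not reach distant elements.

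Mice lacking all ChREBP had lower messengers of glucose phosphorylation, of the committing step of glycolysis, of a lactate carrier and of pyruvate oxidation in refed brown fat. Members called higher were about as frequent as among all genes. Of the lower pathway they included Tpi1, and also Eno2, Pgam1 and Pgk1, whose calls were not kept under every alternative. Of 40 members, 27 (67.5%) were called, 19 lower and 8 higher, against 44.2% of all genes tested. The share called lower was 47.5% against 21.4% of all genes, and the share called higher 20% against 22.8%. With a change of at least 1.5-fold as a further condition, 15 members were called (37.5% against 10.1% of all genes), 13 of them lower (32.5% against 5.3%) and 2 higher (5% against 4.8%). The median log2 fold change of the members was -0.19, and that of all genes 0.01. All 8 KO arrays lay below all 8 WT arrays for 18 members and above them for 4, which is 55% of the members against 16.6% of all genes.

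Loss of ChREBPβ alone was followed by few changes in these genes. Of 40 members, 3 (7.5%) were called, against 2.74% of all genes tested, with 2 lower, Gpi1 and Mpc2 (5% against 1.36%), and 1 higher, Pfkp (2.5% against 1.38%). None of the 3 changed by 1.5-fold, against 0.604% of all genes, and all 3 were called in total ChREBP KO too. At an unadjusted p under 0.05 there were 7 members. The share of all genes at that threshold was not computed, so this count is not read further. Each KO group was compared with its own littermates, so the KO comparisons share no group means. Their p-values are not independent, because all 32 arrays were normalised together and gave the fit its common estimate of the spread. The difference between the KO effects was itself tested by limma and called for 24 members, which is 60% against 25.4% of all genes. The ChREBPβ effect was the higher value for 18 of them (45% against 12.3%) and the lower value for 6 (15% against 13.1%). With the 1.5-fold condition it was called for 13 (32.5% against 7.93%), 11 higher (27.5% against 4.22%) and 2 lower (5% against 3.71%).

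**Figure D1:**
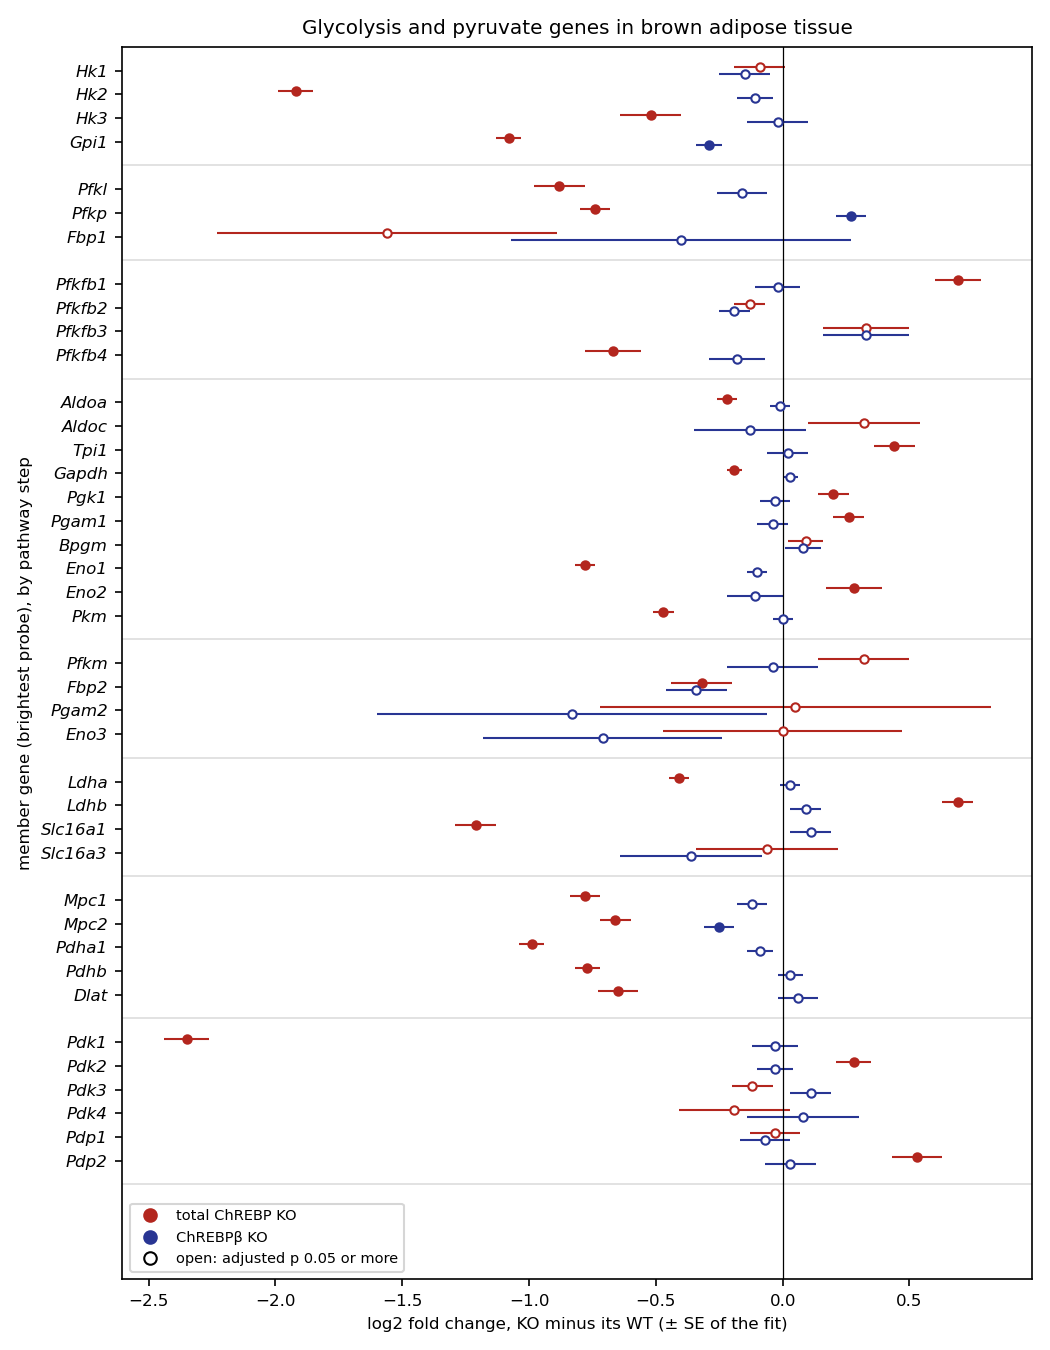
Log2 fold change of each KO group against its own WT (x axis, ± SE of the limma fit, 8 arrays per group) for the 40 members (y axis) in the order of the pathway, with grey lines between steps and open symbols where the adjusted p was 0.05 or more. Red points reach -2.35 for Pdk1 and -1.92 for Hk2, while the blue points of ChREBPβ KO are filled for Gpi1, Pfkp and Mpc2 only.

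Hexose phosphorylation and isomerisation gave 3 lower members of 4 in total ChREBP KO, against 21.4% of all genes. Hexokinases trap glucose in the cell as glucose 6-phosphate, and Hk2 is the insulin-responsive form of fat and muscle. For Hk2 the lowest, median and highest log2 intensities were 14.87, 14.90 and 15.11 in total-line WT and 12.73, 13.10 and 13.22 in total ChREBP KO. The KO arrays were all below the WT arrays, and the change was -1.92 ± 0.07 (SE, limma adjusted p = 1.35e-20), leaving 26.5% of the WT level. In the other line Hk2 lay at 14.96, 15.08 and 15.26 in WT and at 14.65, 15.01 and 15.17 in ChREBPβ KO. Those groups overlapped, with a change of -0.11 ± 0.07 (limma adjusted p = 0.556).

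Hk1, the widely expressed hexokinase bound to mitochondria, was called in neither KO group by its brightest probe (-0.09 ± 0.10 and -0.15 ± 0.10). A dimmer probe, 1 of 4, was higher in total ChREBP KO (0.41, limma adjusted p = 0.000313). Hk3, a hexokinase known from myeloid cells, fell by 0.52 on the log2 scale when all ChREBP was missing (limma adjusted p = 0.000799) and had -0.02 in ChREBPβ KO. The 5 macrophage markers, all measured and above background on all arrays, moved the same way. All 5 were lower in total ChREBP KO, from -1.04 to -0.54, and their mean ranged from 10.19 to 11.02 in total-line WT and from 9.65 to 10.06 in total ChREBP KO. It ranged from 9.48 to 10.29 in ChREBPβ-line WT and from 9.41 to 10.23 in ChREBPβ KO. The part of these cells in the Hk3 result was not tested.

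Gpi1, which turns glucose 6-phosphate into fructose 6-phosphate, was lower in both KO groups. Its values were 17.66, 17.74 and 17.84 in total-line WT and 16.52, 16.65 and 16.91 in total ChREBP KO, a change of -1.08 ± 0.05 with no overlap. In the ChREBPβ line they were 17.67, 17.73 and 17.87 in WT and 17.26, 17.44 and 17.68 in KO, a change of -0.29 ± 0.05 (limma adjusted p = 0.00155) that left 81.6% of the WT level. The highest KO array stood just above the lowest WT array. The fall was larger in total ChREBP KO by 0.79 ± 0.08 (limma adjusted p = 1.55e-09). All 4 Gpi1 probes were lower in total ChREBP KO and 2 of 4 in ChREBPβ KO. With intensities scaled to the 75th percentile of each array in place of quantile normalisation, the ChREBPβ change was -0.24 (limma adjusted p = 0.0908), and with slide as a block it was -0.23 (limma adjusted p = 0.237). Few slides held arrays of both ChREBPβ groups, so a slide block leaves this comparison little precision, for this and other genes.

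Phosphofructokinase commits sugar to glycolysis, and its liver and platelet forms were both lower in total ChREBP KO. Pfkl lay at 13.57, 13.77 and 14.03 in total-line WT and at 12.58, 12.92 and 13.18 in KO (-0.88 ± 0.10, limma adjusted p = 4.39e-09). Its values were 13.40, 13.91 and 14.02 in ChREBPβ-line WT and 13.35, 13.67 and 13.96 in KO, overlapping, with -0.16 ± 0.10. Pfkp moved in opposite directions in the KO groups. It lay at 13.66, 13.76 and 14.03 in total-line WT and at 12.84, 13.06 and 13.22 in KO (-0.74 ± 0.06), but at 13.43, 13.55 and 13.83 in ChREBPβ-line WT and at 13.66, 13.85 and 14.12 in ChREBPβ KO (0.27 ± 0.06, limma adjusted p = 0.0168). The ChREBPβ groups overlapped, and its KO effects were 1.00 ± 0.09 apart (limma adjusted p = 4.11e-10).

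The rise of Pfkp in ChREBPβ KO was the smaller of its findings and the less stable. The within-batch difference, over 4 wash batches, ranged from -0.04 to 0.59, and 3 of 4 batches had the higher value in KO. Of its 5 probes, 2 were lower in total ChREBP KO, where all ranged from -0.74 to 0.06, and 2 were higher in ChREBPβ KO, where all ranged from 0.13 to 0.30. The mean of the 5 probes gave 0.22 in ChREBPβ KO (limma adjusted p = 0.459), a fit of the ChREBPβ groups alone 0.27 (limma adjusted p = 0.0619), and a slide block 0.31 (limma adjusted p = 0.254).

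Fbp1, the liver form of the enzyme that reverses phosphofructokinase, varied widely among arrays of a group, with an SD from 0.36 to 1.96 (n = 8). Its lowest and highest values were 6.03 and 8.86 in total-line WT and 4.97 and 5.99 in total ChREBP KO, which did not overlap, and 6.79 to 11.14 and 5.67 to 10.77 in the ChREBPβ groups. The change was -1.56 ± 0.67 (limma adjusted p = 0.0579), which missed the threshold after adjustment. The mean of 9 liver markers ranged from 7.16 to 11.87 in total-line WT, from 7.28 to 9.98 in total ChREBP KO, from 6.92 to 13.33 in ChREBPβ-line WT and from 6.77 to 13.04 in ChREBPβ KO. The 9 markers did not move together in total ChREBP KO, with changes from -1.88 to 2.49. Of them, 1 was called higher, Cyp2e1 (2.49), and 1 lower, Apoc3 (-1.58), so their mean is a rough measure of liver RNA there. With muscle and liver marker means as covariates, a setting added after the values were seen, the Fbp1 change was -1.21 (limma adjusted p = 2.67e-05). A fit of the total-line groups alone gave -1.56 (limma adjusted p = 0.000702), and the processed signal scaled to the 75th percentile gave -2.09 (limma adjusted p = 0.0279).

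The bifunctional enzymes of the Pfkfb family set fructose 2,6-bisphosphate, the strongest activator of phosphofructokinase, and they split. Pfkfb1 rose in total ChREBP KO, from 11.26, 11.58 and 11.79 in WT to 12.11, 12.26 and 12.42 (0.69 ± 0.09, limma adjusted p = 1.47e-07). In the ChREBPβ line it lay at 11.54, 11.91 and 12.17 in WT and at 11.44, 11.95 and 12.19 in KO. Pfkfb4 fell in total ChREBP KO, from 9.64, 9.81 and 10.28 to 8.90, 9.25 and 9.58 (-0.67 ± 0.11, limma adjusted p = 1.09e-05), and lay at 9.12, 9.40 and 9.95 in ChREBPβ-line WT and at 8.85, 9.29 and 9.48 in ChREBPβ KO. The total-line groups did not overlap for either gene, and the ChREBPβ groups overlapped for both. By their brightest probes, Pfkfb2 (-0.13 and -0.19) and Pfkfb3 (0.33 in both comparisons) were called in neither KO group. Of the 3 Pfkfb2 probes, 1 was higher (0.26) and 1 lower (-0.27) in total ChREBP KO, and 1 of the 2 Pfkfb3 probes was higher there (0.45).

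**Figure D2:**
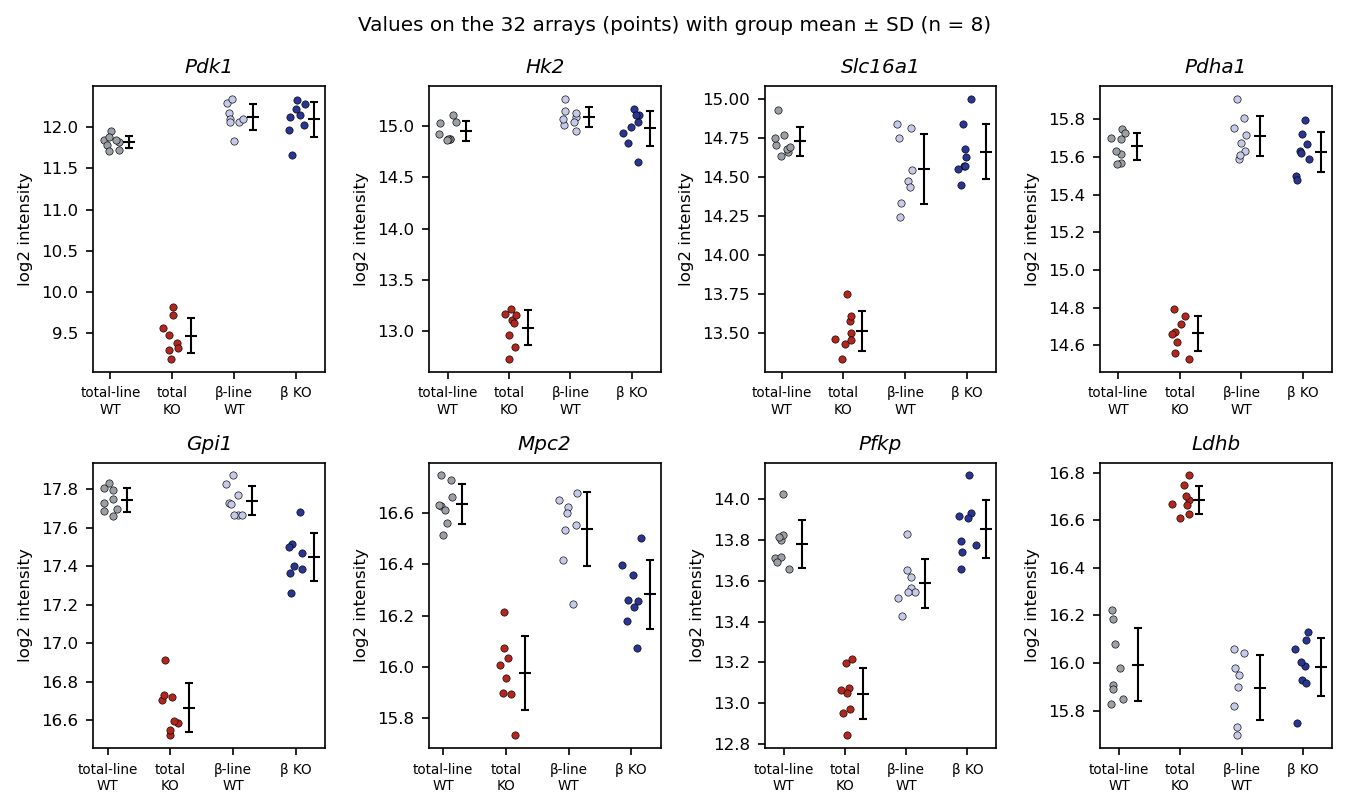
Log2 intensity (y axis) of 8 members on each of the 32 arrays in the 4 groups (x axis), with group mean ± SD (n = 8) beside the points. For Pdk1, Hk2, Slc16a1, Pdha1, Gpi1, Mpc2 and Pfkp every total ChREBP KO array sits below every total-line WT array and for Ldhb above, while the ChREBPβ groups overlap in all 8 panels.

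The steps from triose phosphates to pyruvate moved both ways. Of 10 measured members, 4 were lower and 4 higher in total ChREBP KO, against 21.4% and 22.8% of all genes. None was called in ChREBPβ KO, where 2.74% of all genes were called. Eno1, the general enolase, lay at 17.68, 17.74 and 17.89 in total-line WT and at 16.80, 17.02 and 17.09 in KO (-0.78 ± 0.04, limma adjusted p = 3.09e-16). Its values of 17.80, 17.86 and 17.93 in ChREBPβ-line WT and of 17.71, 17.74 and 17.87 in ChREBPβ KO overlapped. It was the member of this step with the largest decrease. Pkm, the pyruvate kinase of most tissues, fell by 0.47, Aldoa, the aldolase of most tissues, by 0.22 and Gapdh, a frequent loading reference, by 0.19 on the log2 scale, with limma adjusted p of 9.99e-11, 9.25e-05 and 3.87e-05.

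Tpi1, which interconverts the triose phosphates, rose by 0.44 ± 0.08, Eno2, the neuronal enolase, by 0.28 ± 0.11, Pgam1, a phosphoglycerate mutase, by 0.26 ± 0.06 and Pgk1, a phosphoglycerate kinase, by 0.20 ± 0.06 on the log2 scale. None of the 4 rises reached 1.5-fold. The calls of the small changes depended on scaling. With intensities scaled to the 75th percentile, Pgk1 turned to -0.01 (limma adjusted p = 0.926), and Pgam1 (0.10, limma adjusted p = 0.313) and Gapdh (-0.14, limma adjusted p = 0.0566) lost their calls. Eno2 lost its call without any 1 of 6 arrays, replicates 1, 3 and 7 of either group (limma adjusted p from 0.0551 to 0.0913), and it was higher in 3 of 4 wash batches. Aldoc (0.32) and Bpgm (0.09), the enzyme of red cell 2,3-bisphosphoglycerate, were called in neither KO group.

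Probes of the same gene differed in how far they fell. Aldoa took 6 distinct values and Gapdh 17 over the 32 arrays, near the top of the shared quantile distribution. Gpi1 and Eno1, also among the brightest probes, took 29 and 25 and fell by 1.08 and 0.78 on the log2 scale. The part of normalisation in the sizes of these falls was not tested. Of the 14 members with at least 2 probes called lower, among them the brightest, the brightest fell least in 8 and not in the other 6. All 7 Gapdh probes were lower in total ChREBP KO, from -1.14 to -0.19, the brightest being at the small end. For Eno1 the range was -1.69 to -0.78, for Pkm -1.0 to -0.47, for Ldha -0.92 to -0.41 and for Mpc1 -1.48 to -0.78. In ChREBPβ KO none of the 7 Gapdh probes was called. Gapdh, Eno1, Ldha, Pgk1, Pgam1, Tpi1 and Aldoa have processed pseudogenes of near-identical sequence, which a probe may read as well.

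**Figure D3:**
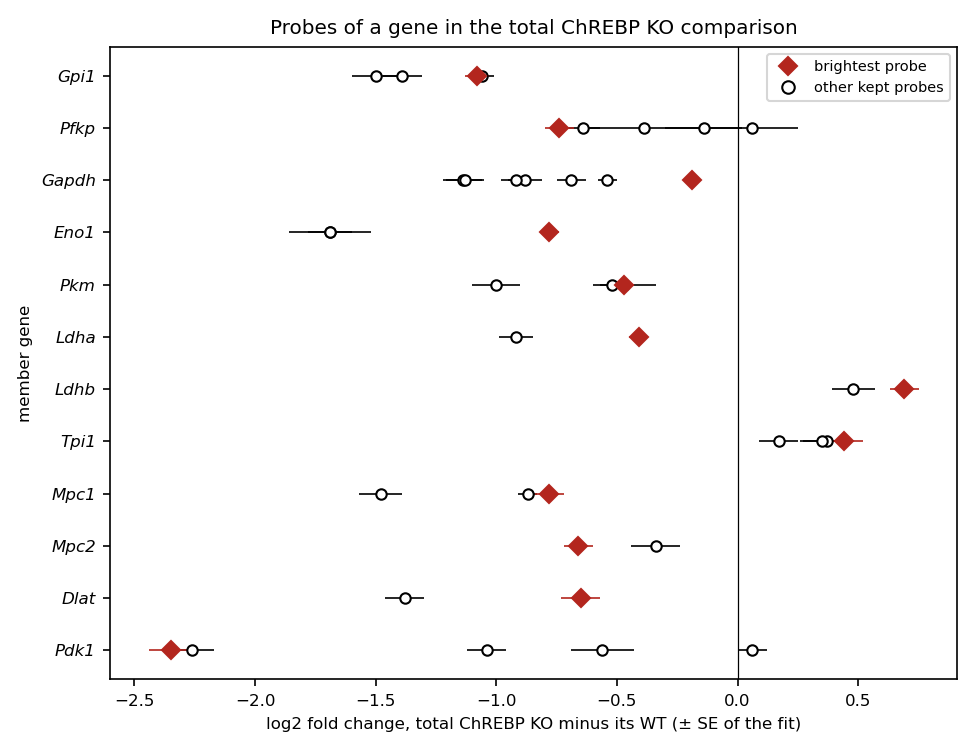
Log2 fold change in total ChREBP KO against total-line WT (x axis, ± SE of the limma fit) for each kept probe of 12 members (y axis), with the brightest probe as a red diamond and the others as open circles. The Gapdh diamond stands at -0.19 while its other 6 probes lie further left, down to -1.14, and for Pfkp and Pdk1 some probes lie near 0.

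Lactate genes separated by isoform and carrier. Ldha, the lactate dehydrogenase subunit that favours lactate formation, was lower in total ChREBP KO by -0.41 ± 0.04 as a log2 fold change (limma adjusted p = 5.51e-11). Ldhb, the subunit of oxidative tissues, rose from 15.83, 15.94 and 16.22 in WT to 16.61, 16.68 and 16.79 (0.69 ± 0.06, limma adjusted p = 9.40e-11), which is 162% of the WT level. Ldhb lay at 15.70, 15.92 and 16.06 in ChREBPβ-line WT and at 15.75, 16.00 and 16.13 in ChREBPβ KO, overlapping.

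Slc16a1, the proton-coupled monocarboxylate transporter Mct1, showed the third largest decrease called among the members, after Pdk1 and Hk2. It lay at 14.63, 14.70 and 14.93 in total-line WT and at 13.33, 13.48 and 13.75 in total ChREBP KO (-1.21 ± 0.08, limma adjusted p = 6.44e-14), leaving 43.1% of the WT level. Its values in the ChREBPβ line were 14.24, 14.51 and 14.83 in WT and 14.45, 14.60 and 15.00 in KO (0.11 ± 0.08). The KO effects differed by 1.32 ± 0.11 (limma adjusted p = 1.33e-10). Slc16a3, the exporter Mct4 of glycolytic muscle fibres, was called in neither KO group, with -0.06 ± 0.28 and -0.36 ± 0.28.

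Entry of pyruvate into mitochondria and its oxidation formed the most uniform step, with 5 of 5 members lower in total ChREBP KO, against 21.4% of all genes. The groups did not overlap for any of the 5, against 16.6% of all genes without overlap. Mpc1 and Mpc2 form the mitochondrial pyruvate carrier. Mpc1 lay at 16.98, 17.05 and 17.15 in total-line WT and at 16.03, 16.25 and 16.57 in KO (-0.78 ± 0.06, limma adjusted p = 5.75e-13), and Mpc2 at 16.51, 16.63 and 16.74 and at 15.73, 15.98 and 16.21 (-0.66 ± 0.06, limma adjusted p = 5.83e-10). In the ChREBPβ line Mpc1 lay at 16.84, 17.00 and 17.07 in WT and at 16.69, 16.90 and 16.93 in KO (-0.12 ± 0.06, limma adjusted p = 0.338). Mpc2 lay there at 16.24, 16.58 and 16.68 in WT and at 16.07, 16.26 and 16.50 in KO, overlapping, with a called change of -0.25 ± 0.06 (limma adjusted p = 0.0258).

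Both probes of Mpc2 were lower in ChREBPβ KO, as was 1 of the 3 probes of Mpc1, and the mean of the Mpc1 probes was called there (-0.24, limma adjusted p = 0.00288). The difference between the KO effects was called for 1 of the 2 Mpc2 probes, and over both it ranged from -0.02 to 0.40. The Mpc2 call was close to the threshold. It was lost when any of 7 of the ChREBPβ-line arrays was left out, WT replicates 1, 2, 3 and 6 or KO replicates 4, 7 and 8, with limma adjusted p from 0.0511 to 0.0634. It was also lost with wash batch as a block (-0.22, limma adjusted p = 0.0744) or slide as a block (-0.19, limma adjusted p = 0.486) and in a fit of the ChREBPβ groups alone (limma adjusted p = 0.0927). The within-batch differences were lower in KO in 4 of 4 wash batches, from -0.34 to -0.11.

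Pdha1 and Pdhb encode the α and β subunits of pyruvate dehydrogenase E1, and Dlat encodes E2. Pdha1 lay at 15.56, 15.66 and 15.75 in total-line WT and at 14.53, 14.67 and 14.79 in KO (-0.99 ± 0.05, limma adjusted p = 1.27e-16), which left 50.2% of the WT level. Pdhb lay at 16.76, 16.96 and 17.09 and at 15.95, 16.20 and 16.35 (-0.77 ± 0.05), and Dlat at 13.36, 13.59 and 13.66 and at 12.63, 12.96 and 13.11 (-0.65 ± 0.08). For all 3 subunits the KO arrays stood below the WT arrays. In the ChREBPβ line Pdha1 lay at 15.59, 15.69 and 15.91 in WT and at 15.48, 15.63 and 15.79 in KO, Pdhb at 16.98, 17.07 and 17.16 and at 16.99, 17.12 and 17.20, and Dlat at 13.21, 13.46 and 13.66 and at 13.28, 13.42 and 13.79. None of these was called, with changes of -0.09, 0.03 and 0.06, and the KO effects differed by 0.91, 0.80 and 0.70 (limma adjusted p of 2.69e-11, 8.26e-11 and 1.18e-05). Over all their probes the ChREBPβ changes ran from -0.25 to -0.09, from -0.31 to 0.05 and from -0.26 to 0.06, without a call. The difference between the KO effects ran from 0.69 to 0.91, from 0.48 to 1.11 and from 0.70 to 1.12, and was called for every probe.

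Among the kinases and phosphatases of the complex, Pdk1 stood out. Pdk1 phosphorylates and switches off pyruvate dehydrogenase. Its brightest probe (chromosome 2, 71739926 to 71739985, mm9) lay at 11.72, 11.83 and 11.95 in total-line WT and at 9.19, 9.43 and 9.82 in total ChREBP KO (-2.35 ± 0.09, limma adjusted p = 1.40e-20), leaving 19.6% of the WT level. This was the largest called change of the 40 members. In the ChREBPβ line it lay at 11.84, 12.10 and 12.34 in WT and at 11.67, 12.13 and 12.33 in KO (-0.03 ± 0.09, limma adjusted p = 0.956). The KO effects differed by 2.32 ± 0.12 (limma adjusted p = 8.26e-16). Of 5 Pdk1 probes, 4 were lower in total ChREBP KO, from -2.35 to -0.56, and 1 had a change of 0.06.

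The kinase and phosphatase families did not move as blocks. Pdk2, the widely expressed kinase, rose by 0.28 ± 0.07 (limma adjusted p = 0.00214) and the phosphatase subunit Pdp2 by 0.53 ± 0.10 (limma adjusted p = 7.52e-05) in total ChREBP KO. Pdk3 (-0.12), Pdk4 (-0.19), the kinase known to rise in fasting, and the phosphatase subunit Pdp1 (-0.03) were not called by their brightest probes. Of the 2 Pdp1 probes, the other was higher in total ChREBP KO (0.38). Neither kinases nor phosphatases were called in ChREBPβ KO, with changes between -0.07 and 0.11.

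For the members called in total ChREBP KO with a change of at least 1.5-fold, the brightest probe gave an interval in ChREBPβ KO. This interval does not bound the other probes of a gene. The lowest probe lay below it for Mpc1 (-0.46), Eno1 (-0.38), Pdk1 (-0.34), Pdhb (-0.31), Dlat (-0.26), Pdha1 (-0.25) and Pfkp (0.13). All probes of Gpi1, Pfkl, Pfkfb1, Ldhb and Mpc2 lay within it. The estimate ± 2 SE in ChREBPβ KO ran from -0.21 to 0.15 for Pdk1, from -0.25 to 0.03 for Hk2, from -0.05 to 0.27 for Slc16a1, from -0.19 to 0.01 for Pdha1 and from -0.07 to 0.13 for Pdhb. These intervals lie above the fall in total ChREBP KO in each case. The lower end was further down for Pfkfb4 (-0.40), Gpi1 (-0.39), Mpc2 (-0.37) and Pfkl (-0.36). In total ChREBP KO these genes had changes of -0.67, -1.08, -0.66 and -0.88. The lower end was -0.24 for Mpc1, -0.18 for Eno1, -0.10 for Dlat and 0.15 for Pfkp. For Pfkfb1 and Ldhb, which rose by 0.69 in total ChREBP KO, the upper ends were 0.16 and 0.21. The difference between KO effects was called for 24 of the 27 members called in total ChREBP KO, the exceptions being Pgk1, Eno2 and Fbp2. These 27 were picked by their change in total ChREBP KO, which is also part of the difference. The count among them is therefore no separate support.

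Muscle isoforms were kept apart, and 3 of the 4 were lower, like the muscle markers, in ChREBPβ-line WT than in total-line WT (14.2% of all genes). Pgam2, the muscle phosphoglycerate mutase, lay at 12.17, 14.71 and 15.43 in total-line WT and at 13.50, 14.32 and 15.09 in total ChREBP KO, but at 6.09, 7.95 and 11.88 in ChREBPβ-line WT and at 5.88, 6.99 and 11.11 in ChREBPβ KO. Eno3, the muscle enolase, lay at 12.41, 14.93 and 15.57, at 13.59, 14.44 and 15.25, at 8.77, 9.55 and 11.98 and at 8.79, 8.98 and 11.38 in the same order. Within a line the KO and WT values overlapped almost fully for both genes. Neither KO comparison called them, with standard errors of 0.77 for Pgam2 and 0.47 for Eno3.

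Pfkm, the muscle phosphofructokinase, lay at 12.73, 14.22 and 14.87 in total-line WT, at 13.92, 14.26 and 14.87 in total ChREBP KO, at 12.34, 12.55 and 12.77 in ChREBPβ-line WT and at 12.33, 12.53 and 12.76 in ChREBPβ KO. It was not called in either KO group. Without total-line WT replicate 6, the array with the most muscle signal (16.12), its change in total ChREBP KO was 0.44 (limma adjusted p = 0.0336) in place of 0.32 (limma adjusted p = 0.163). Fbp2, the muscle fructose bisphosphatase, was not called between the WT groups (0.21, limma adjusted p = 0.17). Within the total line it stood at 7.56 on the array with the least muscle signal and at 8.17 on that with the most. Within the ChREBPβ line it ran the other way, at 8.37 and 7.89. It lay at 7.43, 7.94 and 8.31, at 7.14, 7.60 and 7.91, at 7.70, 8.08 and 8.51 and at 7.55, 7.78 and 7.98 in the same order of groups, and fell by 0.32 ± 0.12 on the log2 scale in total ChREBP KO (limma adjusted p = 0.0315), a call lost without any 1 of 6 arrays, WT replicates 1, 3, 6 and 7 or KO replicates 2 and 8 (limma adjusted p from 0.0543 to 0.0834). The ChREBPβ change was -0.34 ± 0.12 (limma adjusted p = 0.138).

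The largest called differences between the WT groups of the lines were those of Pgam2, Eno3, Slc16a3 and Pfkm. In ChREBPβ-line WT against total-line WT, 22 of 40 members (55%) were called, against 38.8% of all genes tested. These were 16 lower (40% against 14.2%) and 6 higher (15% against 24.6%), and with the 1.5-fold condition 8 lower (20% against 4.84%) and 0 higher (against 3.16%). This comparison shares its arrays with both KO comparisons. Pgam2 differed by -5.70 ± 0.77, Eno3 by -4.35 ± 0.47, Slc16a3 by -2.79 ± 0.28 and Pfkm by -1.42 ± 0.18 (limma adjusted p of 6.27e-07, 9.84e-09, 2.68e-09 and 2.25e-07). The next in size among called members were Pdk4 (-0.71), Pdp1 (-0.63), Aldoc (-0.62) and Pfkfb3 (-0.59), and Fbp1 had 1.47 without a call (limma adjusted p = 0.0802). All 8 arrays of ChREBPβ-line WT lay below all 8 of total-line WT for Pgam2, Eno3, Slc16a3 and Pdp1, 10% of the members against 9.43% of all genes not overlapping.

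On the array of the ChREBPβ line with the least muscle signal (6.21), Pgam2 stood at 6.38 and Slc16a3 at 6.65, and on the array with the most (12.05) at 11.56 and 7.26. In the total line Pgam2 stood at 12.17 and Slc16a3 at 8.04 on the array with the least (12.95), and at 15.43 and 11.33 on that with the most (16.12). Hk2 stood at 15.09, 15.26, 15.03 and 14.88 on those 4 WT arrays. The muscle marker mean did not overlap between the WT groups (12.95 to 16.12 in total-line WT, 6.21 to 12.05 in ChREBPβ-line WT). As a covariate it therefore cannot be told apart from line in that comparison, and a lost call does not assign a difference to muscle RNA. With the muscle marker mean of each array as a covariate, 8 members were called between the WT groups in place of 22, 7 of them among the 22. Pgam2 was then at 0.05 (limma adjusted p = 0.94), Pfkm at -0.80 (limma adjusted p = 0.0544), Eno3 at -1.09 (limma adjusted p = 0.0228) and Slc16a3 at -1.41 (limma adjusted p = 0.00949). In the same fit 27 members were called in total ChREBP KO and 3 in ChREBPβ KO, the same 27 and 3 as without the covariate.

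**Figure D4:**
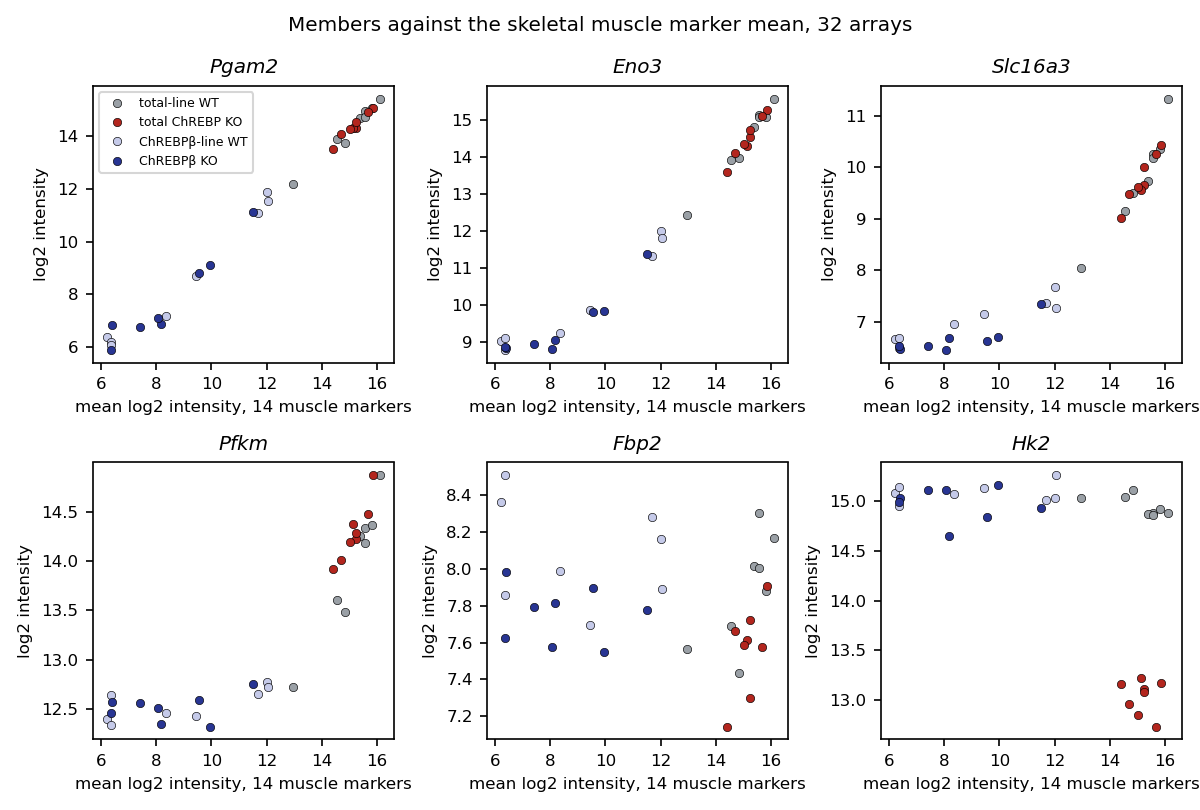
Log2 intensity of 6 members (y axes) against the mean log2 intensity of 14 skeletal muscle markers (x axis) on the 32 arrays, coloured by group. Pgam2, Eno3 and Slc16a3 rise with the marker mean across both lines, and Pfkm rises on the total-line arrays. Fbp2 runs from 7.56 to 8.17 between the total-line arrays of least and most marker signal, but from 8.37 to 7.89 between those of the ChREBPβ line, where it is not lower. Hk2 is low on the total ChREBP KO arrays at marker means shared with their WT.

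Neighbouring steps were read from lists of genes that are no members, to be set against 44.2% of all genes called in total ChREBP KO and 2.74% in ChREBPβ KO. Of 8 measured further glycolytic enzymes, 3 were lower and 1 higher in total ChREBP KO and none was called in ChREBPβ KO, so that 4 of 8 called is near the share of all genes. The largest was Tigar, a fructose 2,6-bisphosphatase, at -0.67. Of 3 remaining genes of the pyruvate dehydrogenase complex, Pdhx, its E3-binding protein, was lower in both KO groups (-0.32 and -0.29, limma adjusted p of 0.000351 and 0.0152), Pdpr, the regulatory subunit of its phosphatase, was higher in total ChREBP KO (0.32), and Dld, its E3 subunit, was called in neither. The difference between the KO effects on Pdhx was 0.03 ± 0.10 (limma adjusted p = 0.888).

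Among 6 measured genes of pyruvate carboxylation and gluconeogenesis, 2 were lower and 2 higher in total ChREBP KO. Me1, the cytosolic malic enzyme that makes pyruvate and NADPH, had -2.59 ± 0.12, and Pck1, the cytosolic phosphoenolpyruvate carboxykinase, 1.08 ± 0.16. Pcx, pyruvate carboxylase, was lower in both KO groups (-0.49 and -0.27, limma adjusted p of 2.3e-06 and 0.0408), the only gene of that list called in ChREBPβ KO. Of 5 genes of lactate and monocarboxylate transport, 1 was higher and 2 lower in total ChREBP KO. Slc16a7, the monocarboxylate transporter Mct2, had 1.67 ± 0.14 there, against -1.21 for Slc16a1, and 0.46 ± 0.14 in ChREBPβ KO (limma adjusted p = 0.0825).

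All 3 measured genes of the glycerol 3-phosphate branch were called in total ChREBP KO, with Gpd2, the mitochondrial dehydrogenase of the glycerophosphate shuttle, at -1.73 and its cytosolic partner Gpd1 at -0.44, while Gpd1l was at 0.44. None was called in ChREBPβ KO. Of 7 transcription factors known for glycolytic genes, 4 were lower and 1 higher in total ChREBP KO. Mlx, the ChREBP partner, was at -0.71, Mlxip, the paralogue MondoA, at -0.33 and Epas1, a hypoxia-inducible factor, at -0.21, with Mlxipl itself, while the growth factor-responsive Myc was at 1.15. Hif1a (0.15, limma adjusted p = 0.0535) and Esrra (0.00) were not called, and Mlxipl was the only factor called in ChREBPβ KO.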

How the data were processed

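Total RNA of interscapular brown fat was labelled with 1 dye and read on 32 Agilent arrays. The scanner output deposited by the authors gives each spot's intensity as written by Feature Extraction 10.10.1.1 (submitters' processing notes). A deposited table of log2 values, which the authors filtered, quantile normalised and collapsed over replicated probes, served as an alternative. Here a spot passed if the scanner software found it positive and well above background on 26 of the 32 arrays or more, or on 6 in any group (39985 of 59305 spots that were no controls). Median intensities were put on the log2 scale, replicated probes collapsed to their median, and arrays quantile normalised, which matched the deposited log2 table within 0.000189 on average over its 37304 probes. Every probe was fitted with limma 3.58.1 in R 4.3.3 (lmFit, eBayes), 4 group means over 32 arrays, with two-sided p-values adjusted by Benjamini-Hochberg and called at 0.05. The fit was tested on simulated data.

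Each array had from 64.4% to 71.1% of its spots well above background, 0 were saturated and 2123 carried an outlier flag, and the number of arrays limits the precision. Names are those of the array design, and probe coordinates are those of mm9. All 41 listed genes were accounted for. Lowest, median and highest values are given for members called in ChREBPβ KO, for members called in total ChREBP KO with at least 1.5-fold change and for the 4 muscle isoforms. The members, gene lists and marker lists were chosen with earlier results of these data known. Alternatives were other signals and scalings, the deposited table, filters, blocks, covariates, the mean of a gene's probes, array weights, a 1.5-fold threshold and leaving out each array. Wash batches 1 to 4 each held arrays of all 4 groups. Replicate numbers were not used as pairs in the main fit, and the labels do not state what they stand for.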

Additional observations from a re-analysis of the deposited data

Results flagged for a closer look

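Of 160 groups of member values, 13 had an array standing apart from the others of its group by Dixon's gap test, and chance gives about 1 in 20 such groups. In ChREBPβ KO these were Hk1 on replicate 3 (14.42, the nearest array at 15.39), Aldoa on replicate 4 (18.85), Eno3 (11.38) and Slc16a3 (7.34) on replicate 6, Mpc1 on replicate 4 (16.69) and Pdp1 on replicate 2 (7.46). Replicate 6 is the ChREBPβ KO array with the highest muscle marker mean (11.50). In ChREBPβ-line WT they were Hk3 on replicate 6 (8.44) and Pfkl (13.40) and Pdk2 (12.68) on replicate 5. In total-line WT they were Pfkp on replicate 4 (14.03) and Slc16a1 on replicate 2 (14.93), and in total ChREBP KO Pdk4 on replicate 4 (15.82) and Pdp2 on replicate 5 (15.84).

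The KO effects differed between the lines for 24 of 40 members by limma. In log2 units, as the ChREBPβ effect minus the total ChREBP effect, the difference was above 0 for Pdk1 (2.32), Hk2 (1.81), Slc16a1 (1.32), Pfkp (1.00), Pdha1 (0.91), Pdhb (0.80), Gpi1 (0.79), Pfkl (0.72), Dlat (0.70), Eno1 (0.68), Mpc1 (0.66), Hk3 (0.50), Pfkfb4 (0.49), Pkm (0.47), Ldha (0.44), Mpc2 (0.40), Gapdh (0.22) and Aldoa (0.21). It was below 0 for Pfkfb1 (-0.71), Ldhb (-0.61), Pdp2 (-0.50), Tpi1 (-0.42), Pdk2 (-0.32) and Pgam1 (-0.29).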

How the results depend on the processing

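Of the 27 members called in total ChREBP KO, 21 kept direction and call under all 14 alternatives and with any array left out, and Aldoa, Eno2, Fbp2, Gapdh, Pgam1 and Pgk1 did not. The count ranged from 25 to 29 without an array, and a 1.5-fold threshold left 15. In ChREBPβ KO the count of 3 became 0 with the processed signal or the median intensity scaled to the 75th percentile, with slide as a block and with the 1.5-fold threshold, 1 in a fit of its own groups, and 2 to 4 without an array. Because few slides held both ChREBPβ groups, the slide block has little precision there. The difference between KO effects was called for 24 members, 13 with the 1.5-fold threshold and 23 to 26 without an array. Between the WT groups 22 were called, 8 with the muscle mean as covariate, 7 with muscle and liver means (added after the data were seen), 8 with the 1.5-fold threshold and 20 to 22 without an array. Pgk1 in total ChREBP KO turned to -0.01 under either scaling to the 75th percentile (processed signal or median intensity). Pgam2 between the WT groups turned to 0.05 and 0.12 with the muscle mean and with both means as covariates. The cause was not tested.

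With the replicate block, 29 members were called in total ChREBP KO, 3 in ChREBPβ KO, 25 in the difference and 21 between the WT groups. The difference for Hk3 lost its call without any 1 of 8 arrays (limma adjusted p from 0.0510 to 0.0605). Same-numbered arrays of WT and KO correlated between -0.30 and 0.08 in the total line and between -0.20 and 0.53 in the ChREBPβ line, and 0 of 8 matched their own number best in either. The labels do not state what a number stands for, and these correlations cannot tell whether same-numbered arrays were pairs.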
